A study of Drosophila melanogaster with 3 samples.

Results

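The 10 genes described here act in the germline of Drosophila melanogaster. They were examined for regions bound by CG10209, expressed with green fluorescent protein (GFP) fused to its C-terminus, in chromatin immunoprecipitation followed by sequencing (ChIP-seq). The genes vas, gcl, osk, tud and pgc serve germ plasm and germ cell formation, and aub, piwi, AGO3, spn-E and zuc serve the piRNA pathway; they are 10 of 13968 annotated protein-coding genes. A region was assigned to a gene when its summit lay in the gene or within 2 kb of it, by position alone and not by any measured value. The study has 1 group of 3 biological replicates of a transgenic CG10209-GFP line, each made from whole embryos 0 to 24 h old, male and female pooled, and precipitated with an antibody against GFP. The tagged protein comes from a transgene in 1 line, and whole embryos contain few germ cells among many somatic ones, so a region cannot be attributed to either kind of cell. The study has no second genotype or time to compare with, so no test between conditions is possible, and counts are read against all protein-coding genes.

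Germ plasm is the cytoplasm at the posterior pole of the egg that gives rise to the pole cells, the precursors of the germline. Oskar protein nucleates it, and the helicase Vasa and the scaffold protein Tudor assemble on Oskar. The piRNA pathway silences transposons in the gonad: small RNAs guide the PIWI proteins Piwi, Aubergine and AGO3 to transposon transcripts. In the cytoplasm piRNAs are amplified by cleavage of transcripts in the perinuclear nuage, where Vasa and the helicase Spindle-E (spn-E) act, while the nuclease Zucchini (zuc) cuts precursors at mitochondria and Piwi silences loci in the nucleus. Much of the RNA and protein of these genes in the early embryo is laid down by the mother.

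The sequences at the summits that the account turns on are shown as 201 bp windows of the RefSeq Release 6 genome (dm6), centred on a summit and written in the direction of transcription of the gene. They are the peak of vas, the peak of spn-E, the strongest pooled region of vas outside the peaks, and the region at the start of piwi in replicate 3. Capitals mark a match on either strand to any of 8 short motifs, listed with their frequencies further on; windows with no capitals hold none of them.
vas, peak, chr2L:15061406-15061606, plus strand: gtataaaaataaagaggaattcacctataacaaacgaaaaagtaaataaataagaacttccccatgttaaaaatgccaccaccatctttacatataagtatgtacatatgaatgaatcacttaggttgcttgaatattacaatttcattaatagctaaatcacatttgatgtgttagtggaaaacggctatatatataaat
spn-E, peak, chr3R:15837192-15837392, plus strand: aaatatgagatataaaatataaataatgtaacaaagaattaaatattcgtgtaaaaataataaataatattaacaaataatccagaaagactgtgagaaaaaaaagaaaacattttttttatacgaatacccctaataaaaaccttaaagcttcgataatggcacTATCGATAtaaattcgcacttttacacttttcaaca
vas, intron, chr2L:15066226-15066426, plus strand: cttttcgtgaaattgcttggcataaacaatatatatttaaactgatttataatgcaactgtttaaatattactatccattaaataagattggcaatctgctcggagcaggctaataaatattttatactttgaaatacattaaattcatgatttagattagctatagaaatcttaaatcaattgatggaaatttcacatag
piwi, replicate 3, chr2L:10987504-10987704, minus strand: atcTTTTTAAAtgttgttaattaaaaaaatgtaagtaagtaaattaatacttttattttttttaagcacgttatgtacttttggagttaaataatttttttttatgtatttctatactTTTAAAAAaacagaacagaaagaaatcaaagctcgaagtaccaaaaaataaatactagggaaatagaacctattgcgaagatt
A and T varied between the member windows. These bases make up 72.6% of the window at the vas peak, 77.6% at spn-E, 74.6% in the vas intron and 78.6% at piwi, against a median of 65.2% over the 6307 peaks. Of all peak windows, 11.7% hold as large a share of A and T as the vas peak and 1.95% as large a share as the spn-E peak. The windows of the gcl peaks, not printed, were nearer the median with 69.2% and 66.2%, and the window of the highest pooled region at zuc was below it with 62.7%.

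Values came from 5 lists of regions with dm6 coordinates. The authors called 30000 regions in each replicate and 30000 in the pooled replicates, background included. Of the pooled regions, 6307 were given as peaks by the irreproducible discovery rate (IDR), a measure of how well ranks recur between replicates. A peak need not recur in every replicate: 673 of the 6307 overlapped no region of replicate 1. The peaks of the members had the same rank by signal value in the peak list as in the pooled list. Each region carries the authors' signal value and a −log10 q, and regions are ranked here by signal value within their list. Regions of different rank can share 1 −log10 q, so high values of it do not order them. In replicate 1 the regions of rank 1660 and 2185 shared 3.68. In replicate 2 those of rank 1608 and 4656 shared 3.98, and in replicate 3 those of rank 1030 and 5636 shared 4.11. Read depth is unknown, because the lists hold no counts. Replicate 1 was the weakest by the authors' q: 4296 of its regions had a −log10 q of 2 or more (q of 0.01), against 9183 in replicate 2 and 9015 in replicate 3.

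IDR peaks lay at 3 of the 10 genes, vas, gcl and spn-E, and 7 genes had none. The germ plasm group held 2 of the 3 (of 5 genes) and the piRNA group 1 (of 5 genes). This split counts vas in the germ plasm group only, although Vasa acts in the nuage as well. Among all protein-coding genes 38.6% had a peak in the gene or within 2 kb, so the members' count of 3 of 10 is near the background. Their 4 peaks all lay outside the gene body, within 500 bp upstream of a start. By that promoter count the members again had 3 of 10, against 21.5% of coding genes. The median length of the members was 4979 bp against 2164.5 bp for all coding genes, so a distance rule gave them more sequence than most genes.

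**Figure D1:**
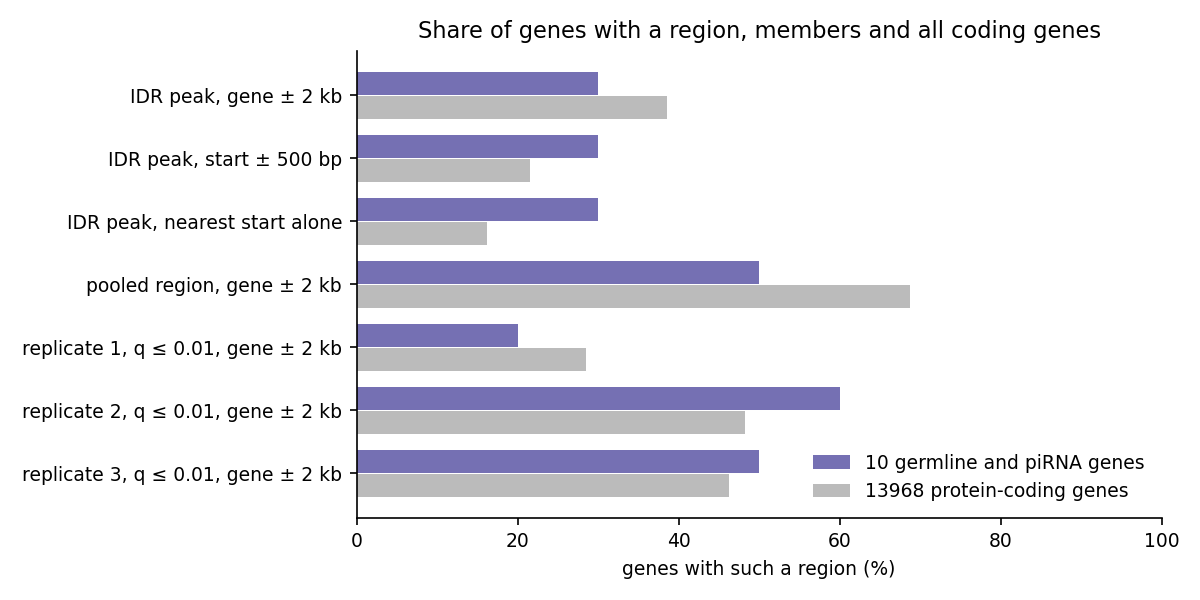
Share of genes (%) with a region, for the 10 germline and piRNA genes (purple bars) and 13968 protein-coding genes (grey bars), by list and rule; bars start at 0 and have no error bars, since each is a count of genes. The members are below the coding genes for peaks within 2 kb (30% against 38.6%) and above them for peaks at starts (30% against 21.5%), in both cases by less than 1 gene in 10.

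Peak signals at the members were moderate. The highest peak had a signal of 418 at gcl, 411 at spn-E and 281 at vas, compared with a median of 341 and a lowest value of 195 over all 6307 peaks. Among the 3004 coding genes with a promoter peak the median highest signal was 420; of these genes, 50.2% had a higher one than gcl, 51.3% a higher one than spn-E and 75.6% a higher one than vas. These values stand near the middle of the promoter peaks for gcl and spn-E, and in the lower part for vas.

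gcl (germ cell-less, FBgn0005695; dm6 2R, 8724258 to 8728999, plus strand) is required for pole cell formation. It had a pair of overlapping peaks between its own start and that of the divergent gene CG14767, 419 bp upstream. The stronger peak (8723722 to 8724165, signal 418, rank 2376) had its summit 105 bp from the start of CG14767 and 314 bp from that of gcl. The weaker one (8723921 to 8724364, signal 277, rank 4129) had its summit 115 bp upstream of gcl. Their summits lay 199 bp apart and their intervals shared 245 bp, so the peaks need not be separate sites. Both summits lay in intergenic sequence.

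Replicates differed in how they split this stretch. Replicate 1 had a single region there, rank 2927 (signal 112, −log10 q 2.81), whose summit was 142 bp from the start of CG14767. Replicate 2 had a region of rank 2836 (signal 113), with its summit 180 bp from CG14767, and another of rank 7080 (signal 61.7) whose summit was 38 bp from gcl. Replicate 3 had regions of rank 1603 (signal 211) and 4084 (signal 109.6), at 106 bp from CG14767 and 110 bp from gcl. In replicates 2 and 3 the region nearer CG14767 ranked higher, and the region nearest gcl was missing in replicate 1. Inside gcl the pooled list held only lower regions in an intron, near the start of snoRNA:gcl-a, with ranks of 12691 and 12745.

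spn-E (spindle E, FBgn0003483; 3R, 15837419 to 15844415, plus strand), which encodes a helicase of the nuage, had the most even peak. It spanned 15837070 to 15837513 with signal 411 and rank 2431, and its summit lay 127 bp upstream of the start, which was the nearest start of any gene. Replicate ranks were 2185 (signal 142), 2931 (signal 110.3) and 2978 (signal 139), with −log10 q of 3.68, 3.98 and 4.11 in replicates 1, 2 and 3. Their summits fell 6 bp, 4 bp and 0 bp from the IDR summit. All 3 replicates therefore placed a region of similar rank at this promoter. The start of ND-23, on the opposite strand, lies 302 bp upstream of that of spn-E. The window at the summit holds the DNA replication-related element, shown in capitals above, centred 58.5 bp from the start.

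A second place in spn-E was seen mainly in replicate 2. There a region in an intron, 146 bp from the start of the nested gene Pbp45, had rank 8076 (signal 56.5, −log10 q 2.38). Replicate 3 had a region 16 bp from that start with rank 19449 (signal 30.6), and the pooled list one 14 bp from it with rank 14677 (signal 93.0). Replicate 1 had none near it, its only other region in spn-E lying 2880 bp from that start with rank 15962.

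vas (vasa, FBgn0283442; 2L, 15061656 to 15074311, plus strand), the DEAD-box helicase gene of germ plasm and nuage, had a peak from 15061284 to 15061727 with signal 281 and rank 4070. Its summit lay 150 bp upstream of a start that vas shares with solo, a gene for sister chromatid cohesion, so the peak belongs to either by distance. Replicate 2 had a region there of rank 6145 (signal 67.7, −log10 q 3.05) and replicate 3 one of rank 5636 (signal 85.2, −log10 q 4.11). Replicate 1 had no region overlapping this peak among its 30000. Of all 6307 peaks, 673 (10.7%) overlapped no region of replicate 1, compared with 67 (1.06%) for replicate 2 and 21 (0.333%) for replicate 3. Both replicates that hold the vas region rank it close to 6307, the number of peaks.

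**Figure D2:**
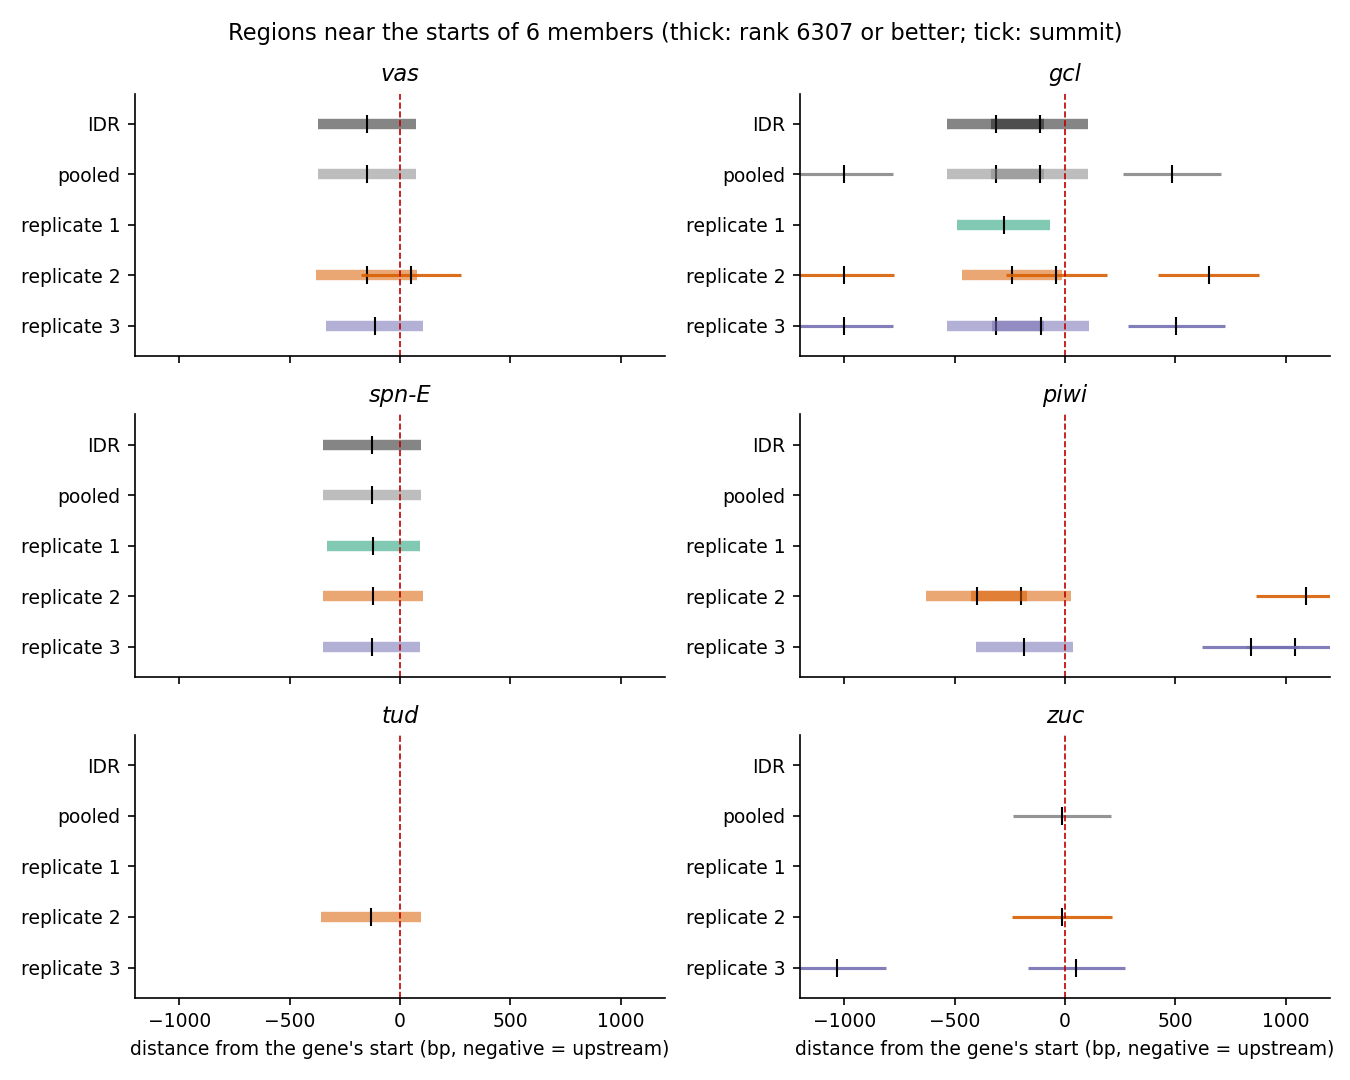
Regions around the starts of 6 members in each list; x is the distance of the summit from the gene's start (bp, negative is upstream), bars span each region, ticks mark summits, and thick bars have rank 6307 or better. At spn-E all 5 lists hold a region upstream of the start, at vas replicate 1 holds none, and at piwi replicates 2 and 3 alone hold one.

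The gene body of vas held the pooled region closest to the peak list. In an intron shared by vas, solo and the nested gene vig, 4670 bp downstream of the vas start, a pooled region (15066104 to 15066547) had signal 188.5 and rank 6570, or 96.8% of the signal of the lowest peak. Its −log10 q was 2.89. Replicate 2 had a region there of rank 5122 (signal 76.8), which ranked above its region at the vas start. In replicate 3 the order was the other way, with rank 8290 (signal 62.2) in the intron. Replicate 1 again had none, and its only region in vas, 8133 bp downstream of the start, had rank 19176 (signal 29.6). The nearest start to the intronic summit was that of vig, 1752 bp away.

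**Figure D3:**
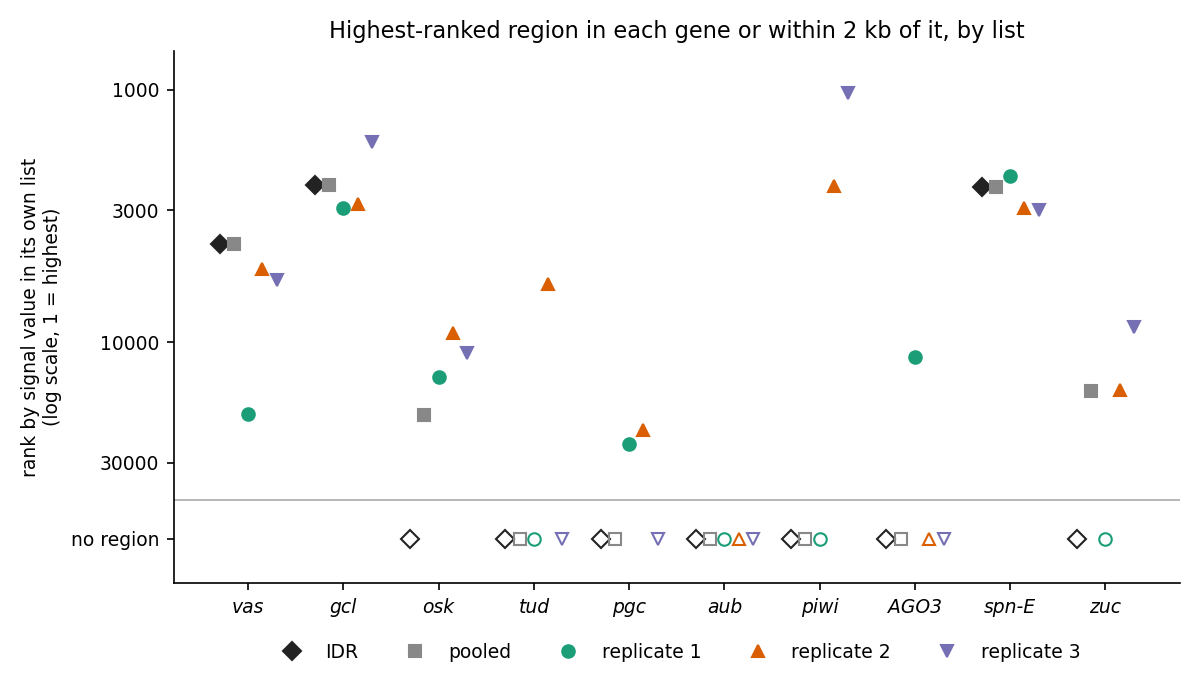
Rank of the highest-ranked region in each gene or within 2 kb, in each of 5 lists (log scale, 1 is the highest signal value; open symbols below the line mark a list with no region). For gcl and spn-E the highest ranks lie between 1603 and 2978 in every list, whereas piwi has ranks of 1030 and 2403 in replicates 3 and 2 and no region in the other lists.

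piwi (FBgn0004872; 2L, 10982205 to 10987420, minus strand), the nuclear PIWI protein gene, had no IDR peak and no pooled region, yet the highest replicate rank of any member. In replicate 3 a region from 10987384 to 10987823 had signal 275 and rank 1030 of 30000 (−log10 q 4.11), with its summit 184 bp upstream of the piwi start. In replicate 2 a region from 10987392 to 10987847 had signal 125 and rank 2403 (−log10 q 3.98), with its summit 200 bp upstream. The nearest start to that summit was not that of piwi but that of the divergent gene CG12253, 186 bp away. A further region of replicate 2 had rank 5353 (signal 74.6), its summit 14 bp from the start of CG12253, which runs the opposite way from a start 386 bp from that of piwi. Replicate 1 had no region in piwi or within 2 kb. The signals in replicates 2 and 3 were 1.87 and 3.52 times that of the region ranked 6307 in the same list.

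The region at piwi was singled out after its values were seen, so the number of regions like it is given. Replicate 3 had 5066 regions among its top 6307 that overlapped a top 6307 region of replicate 2. Of these, 53 (1.05%) overlapped no pooled region, and 43 of the 53 overlapped no region of replicate 1 either. By replicate 3 rank the piwi region was the second of the 53. The cause of its absence from the pooled list was not tested.

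piwi and aub lie 10.4 kb apart, in 1 stretch of 41.0 kb that holds no pooled summit (10970263 to 11011278), against a median of 1623 bp between neighbouring pooled summits. Of 29994 pairs of neighbouring pooled summits, 190 (0.633%) were at least as far apart. Within that stretch, leaving out regions that overlap a pooled region at its edge, there were 10 regions in replicate 2, 10 in replicate 3 and 0 in replicate 1. Of these, 3 in replicate 2 and 2 in replicate 3 were in the top 6307. They lay at the starts of piwi and CG12253 and at the start of RpL9, a ribosomal protein gene, where the ranks were 1874 and 2510. Both replicates thus had high regions in a stretch where replicate 1 and the pooled list had none.

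**Figure D4:**
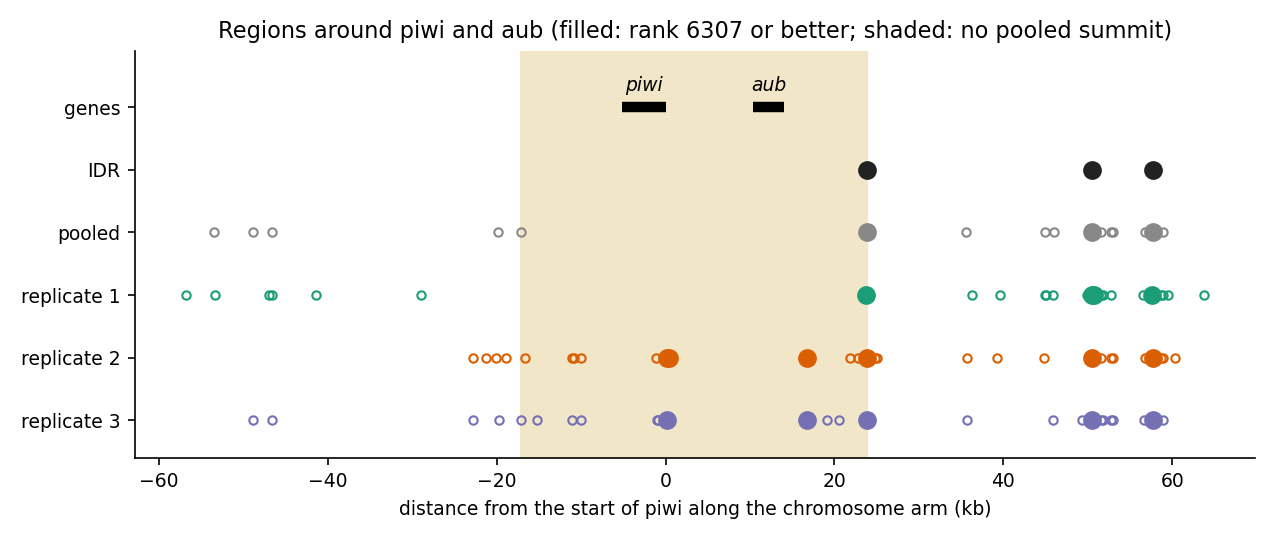
Summits around piwi and aub in each list; x is the distance from the piwi start along the chromosome arm (kb), filled points have rank 6307 or better, open points a lower rank, black bars mark the genes, and the shaded stretch of 41.0 kb has no pooled summit. Replicates 2 and 3 have filled points at the piwi start and near 16.7 kb, where the other lists have none.

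aub (aubergine, FBgn0000146; 2L, 10997819 to 11001476, minus strand), a cytoplasmic PIWI protein gene that acts in germ plasm as well, had no region in any of the 5 lists in the gene or within 2 kb. The nearest regions were those at RpL9, 2642 bp away in replicate 2 (signal 145) and 2666 bp away in replicate 3 (signal 156). They fell just outside the 2 kb rule.

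tud (tudor, FBgn0003891; 2R, 21183322 to 21192913, plus strand) had a region at its start in replicate 2 only. Its rank was 5874 (signal 70.0, −log10 q 3.22), with the summit 131 bp upstream, and a pair of tRNA genes also start within 500 bp of it. Replicate 1, replicate 3 and the pooled list had no region in tud or within 2 kb. The other 4 regions of replicate 2 by tud ranked between 9776 and 20208, and 3 of them were nearest to the start of Lapsyn, downstream of tud. The nearest IDR peak, in an intron of Pu and 149 bp from the start of CG4286, lay 4537 bp from tud with signal 263.

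zuc (zucchini, FBgn0261266; 2L, 11988735 to 11989882, minus strand) had low regions at its start. The pooled region had rank 15511 (signal 88.8, −log10 q 0.539), with the summit 15 bp upstream. The divergent gene dgt2 starts 54 bp upstream of zuc, so this region lies within 500 bp of both starts. Ranks were 15482 in replicate 2 (signal 35.2) and 14038 in replicate 3 (signal 39.8), and replicate 1 had none. All of these are far below the peaks. A region of replicate 3 with rank 8659 (signal 59.9, −log10 q 2.13) lay near zuc but 64 bp from the start of CG6686.

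osk (oskar, FBgn0003015; 3R, 8935126 to 8938395, plus strand), whose product nucleates germ plasm, had no region at its start. The pooled regions in its range had signals of 70.8 to 74.3 and ranks of 19442 to 20642. In replicate 1 the highest region had rank 13682 (signal 35.1), 759 bp upstream of the start. The highest regions of replicates 2 and 3, of rank 9183 (signal 51.5) and rank 11036 (signal 48.5), were nearest to the start of ScsbetaA, downstream of osk. Outside the range, 3082 bp from osk, an IDR peak of signal 422 lay 148 bp from the start of pyd.

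pgc (polar granule component, FBgn0016053; 2R, 22330200 to 22332813, plus strand), whose product holds back transcription in pole cells, had regions near the bottom of the lists. Replicate 2 had 1 region, in the gene's 5' UTR and in coding sequence of T3dh, with rank 22247 (signal 26.9), and replicate 1 had 2 with ranks of 25248 and 25622, both nearest to the start of CG34207. Replicate 3, the pooled list and the IDR list had none.

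AGO3 (FBgn0250816; 3L, 23554593 to 23689640, plus strand), the partner of Aubergine in piRNA amplification, is the longest member at 135048 bp. It had 11 regions in replicate 1, with ranks of 11373 to 29158 and signals of 23.7 to 38.8, and 0 in every other list. Of the 11, 10 lay in its introns, and the closest to a start of the gene was 15131 bp away. The pooled list had no summit between 23175369 and 24352008, and the peak list none between 22948094 and 26012626. In replicate 2 the last summit on this arm was at 23126185, before the gene, and in replicate 3 the gap ran for 1177 kb. Outside replicate 1, the stretch without summits thus extended well past the gene.

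Counted in each replicate on its own at a −log10 q of 2 or more, 2 members had a region in replicate 1 (gcl and spn-E), against 28.5% of coding genes. In replicate 2 there were 6 (vas, gcl, osk, tud, piwi and spn-E), against 48.2%, the region of osk lying at the minimum itself with a −log10 q of 2.00. In replicate 3 there were 5 (vas, gcl, piwi, spn-E and zuc), against 46.2%. Any pooled region at all lay at 5 members (vas, gcl, osk, spn-E and zuc), against 68.7% of coding genes. Every one of these counts is within 2 genes of what the background share gives for 10 genes. Those present in all 3 replicates at this minimum were gcl and spn-E.

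Of the 4 member peaks, 3 overlapped a region among the top 6307 of every replicate, the vas peak being the exception. At gcl the same top-ranked regions overlapped both peaks. Over all peaks, 65.99% overlapped such a region in every replicate; by replicate, 82.3% overlapped such a region in replicate 1, 83.4% in replicate 2 and 90.9% in replicate 3. When each peak counted only for the gene of the nearest start, vas, gcl and spn-E still had one, against 16.2% of coding genes. For gcl this rests on the weaker of its peaks.

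Motifs were read in windows of 100 bp either side of a summit, on both strands. The motifs were the DNA replication-related element TATCGATA, the words CACTGAGA, TACACTGA, CACTGTGC and TTTAAAAA, the Zelda motif CAGGTA, the GAGA factor motif GAGAG and the E-box CACGTG. TACACTGA and CACTGAGA can share bases. TATCGATA was present in the window of the spn-E peak, centred 68.5 bp from the summit. It was present in 5.41% of the 2701 promoter peaks, 2.54% of all peaks and 1.16% of 22351 pooled regions that overlap no peak. TTTAAAAA had 2 matches in the window of the weaker gcl peak and 2 in that of the piwi region of replicate 3, and was present in 12.6% of promoter peaks and 5.71% of pooled regions outside the peaks. The windows of the vas peak, the stronger gcl peak and the vas intron held none of the 8 motifs. CACTGAGA, TACACTGA and CACTGTGC, found in 1.63%, 1.89% and 3.70% of promoter peaks, were absent from every member window read. Outside the peaks their shares were 1.97%, 1.44% and 1.90%. The Zelda motif, GAGAG and the E-box, found in 3.44%, 20.3% and 2.37% of promoter peaks, were absent too. Their shares outside the peaks were 4.06%, 22.5% and 2.51%. The member windows are few, so these absences cannot show a lack of the motifs. A match is a description of the letters and does not show what binds there.

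Other genes of the same pathways were counted from 5 lists of 77 symbols, of which 67 matched an annotated gene. A promoter peak was present at 16 of the 67, 3 of them members, and at 13 of the 57 others (22.8%), against 21.5% of coding genes. The 16 fell to 10 of 67 (14.9%) when the peaks were those top-ranked in replicates 1 and 3 and to 9 of 67 (13.4%) for replicates 1 and 2, while the share of coding genes fell to 15.2% and 14.3%. For replicates 2 and 3 they were 13 of 67 (19.4%), against 17.7% of coding genes. In the germ plasm and germ cell list 7 of 23 genes had one: bgcn (signal 963), the partner of the differentiation factor Bam, orb (938), a translational regulator, egl (728), an adaptor for mRNA transport, and capu (406), a formin, were among them, beside gcl and vas. In the nuage list 4 of 17 had one, papi (1886) and tapas (250.4), both Tudor domain proteins, beside spn-E and vas. The biogenesis list had 2 of 13, papi and the exonuclease gene Nbr (253). The list for cluster transcription and export had 2 of 10, cuff (666) and the exportin gene emb (221), and the nuclear silencing list had 3 of 13, wde (352), a cofactor of histone methylation, and HP1b (351), a heterochromatin protein, among them.

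papi had the highest promoter peak of these genes, with rank 140 of 6307 and replicate ranks of 175, 114 and 135. Within 2 kb but over 500 bp from their starts, 3 other genes of the nuclear silencing list had a stronger peak, wde (signal 2067) and Su(var)2-10 (2295) among them, named after their values were seen. The gene of the nearest start was not recorded for these stronger peaks, so they may belong to a neighbour by distance. For the promoter peaks of orb, cuff, wde and Nbr the nearest start to the summit was that of another gene: Cdc16, CG13185, CG12935 and Noc2. The peaks of 4 of the 13 other genes, bgcn, HP1b and emb among them, overlapped no region of replicate 1, as at vas. Over all 6307 peaks this held for 673 (10.7%). With 13 genes the count is small, and the share over promoter peaks alone was not computed. By the distance rule of 2 kb, 33 of the 57 other genes (57.9%) had a peak, against 38.6% of coding genes; their median length was 4528 bp, against 2164.5 bp.

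**Figure D5:**
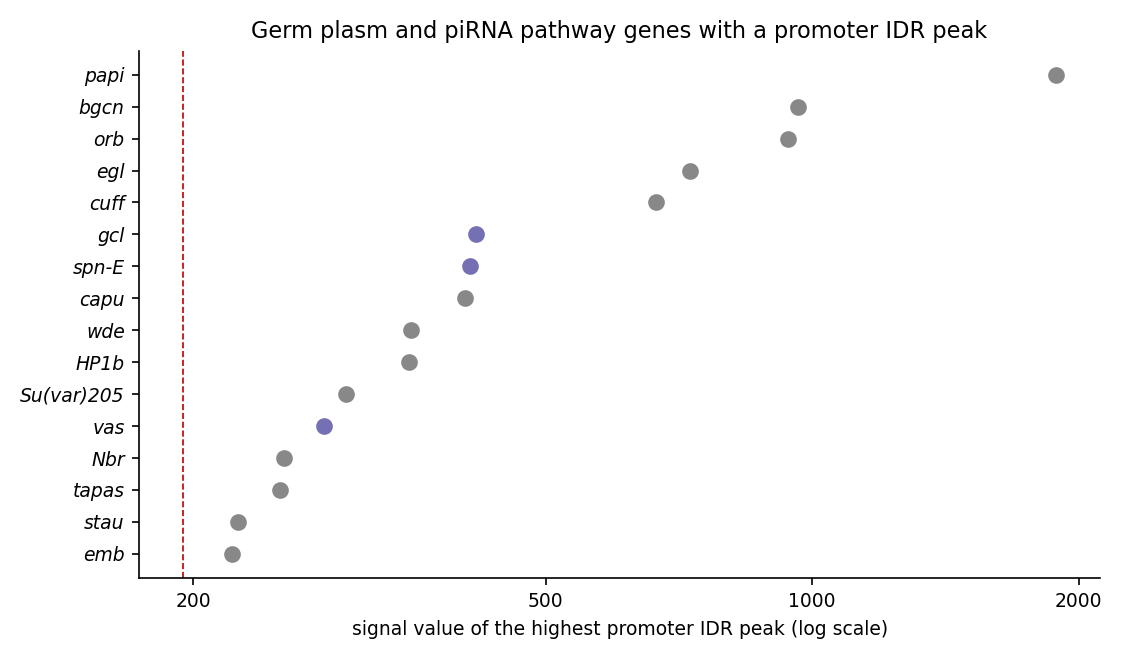
Signal value of the highest promoter IDR peak (log scale) for the 16 pathway genes that have one; purple points are members, grey points other genes of the lists, and the dashed line is the lowest signal of any peak (195). papi (1886) is highest, and gcl, spn-E and vas lie between 281 and 418.

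Genes with the most similar replicate ranks were named for the members with a promoter peak, by the distance of log2 ranks over the 3 replicate lists among 3002 coding genes with another promoter peak. For vas they were CG32813 and CG3719 (a shared peak, ranks 6199 and 5575 in replicates 2 and 3 and no region in replicate 1), at a distance of 0.0201. For spn-E they were hebe (ranks 2183, 2877 and 3004; distance 0.0296) and RhoGAP93B (2151, 2964 and 2852; distance 0.0683). For gcl they were Ids (3475, 2919 and 1739; distance 0.277) and Reph (2486, 2839 and 1866; distance 0.322). Such likeness describes how the replicates ranked the peaks.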

How the data were processed

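ChIP-seq of GFP-tagged CG10209 was carried out in 3 biological replicates, with chromatin sonicated to 200 to 800 bp, per the labels. Per notes deposited beside the lists, the authors called regions on each replicate and on the pooled replicates against 1 common control, and derived the IDR peaks from these lists. Which aligner, peak caller and IDR cutoff were used is not given in the sources used here. Each region's signal value and −log10 q are the authors' deposited values, and signal values were compared within 1 list only. Read depth is unknown.

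The dm6 lists were joined to Release 6 with the Ensembl 115 annotation (18277 genes without transposable elements, 13968 of them protein coding); 0 regions ran past an arm's end. Coordinates are 1-based. Promoter peaks have their summit within 500 bp of an annotated start, and ties for the nearest start count for each gene. Counting by distance, start and overlap was tested on simulated summits, and 500 of 500 planted genes were found. Python 3.11.15 with numpy 2.4.6 was used. No test was run, since the study has 1 group. Genes named are the 10 members, the genes of the nearest starts, up to 6 genes of each list with the highest promoter peaks, and those most alike in rank. The members and lists were chosen with earlier results of these data known. Of the listed symbols, 10 matched no gene and were not used. Lists with dm3 coordinates were not used here.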

Additional observations from a re-analysis of the deposited data

How the results depend on the processing

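Of 53 values recomputed under other settings, 39 equalled the value given or lay within 1.5 times of it, and 14 did not. With no distance around the gene, 0 members had a peak, 0 had their own start nearest to their highest peak, and 0 peaks overlapped a top-ranked region of every replicate, because all 4 summits lie upstream; 14.1% of coding genes had a peak inside them. With 5 kb, 5 members had a peak (vas, gcl, spn-E, osk and tud), against 52.5% of coding genes. Of the members, 1 had its own start nearest to its highest peak, against 2 at 2 kb. At 5 kb 8 peaks had a top-ranked region in every replicate, against 3 of 4 at 2 kb, beside 65.99% of all peaks. The peaks that 5 kb added were nearest to the starts of ck, pyd and CG4286, not of members. At 5 kb the highest signal for vas was 482.5, from a peak nearest to ck. With 5 kb, 5 members had a region with a −log10 q of 2 or more in replicate 1 and 8 in replicate 3, against 40.6% and 61.6% of coding genes. With no minimum on q, 6 did in replicate 1, against 63.8%. With the 3153 peaks of highest signal, 10 of 67 pathway genes (14.9%) had a promoter peak, against 13.5% of coding genes, and 1 member had its own start nearest to its highest peak.

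Leaving out a replicate was done by keeping the peaks overlapped by top-ranked regions in each of the remaining replicates. The members with a peak then numbered 2 to 3, and the same for promoter peaks. Here vas was lost without replicate 2 or replicate 3, since no region of replicate 1 overlaps its peak. With all 3 replicates the vas peak does not meet this requirement either. Member peaks covered in all remaining replicates numbered 3 to 4. Pathway genes with a promoter peak numbered 9 to 13, with 10 without replicate 2 and 9 without replicate 3, against 16 with all peaks. All peaks numbered 6307 with no such requirement and 4162 with it in all 3 replicates. Without replicates 1, 2 and 3 they numbered 4925, 4799 and 4359. Coding genes with a promoter peak were then 17.7%, 15.2% and 14.3%, against 21.5% with no such requirement. With 1 group, no paired analysis was possible because no other group shares its replicate numbers. Without read counts, the lists cannot show whether a missing region reflects depth.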
